A study of Mus musculus with 2 samples.

Results

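The ATP-binding cassette (ABC) transporters are membrane pumps that use ATP hydrolysis to move lipids, bile salts, conjugated metabolites and drugs. They were taken here as the genes whose symbol starts with Abca to Abcg followed by a number and that have a probe set annotated to no other gene. The rule found 45 of the 18193 genes with such a probe set on the array, read by 92 probe sets. Subfamily A had 14 of them, B had 8, C had 10, D had 3, E had 1, F had 3 and G had 6. The rule goes by symbol, so Tap1, Tap2 and Cftr, which belong to the same superfamily under other names, are not among them.

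RNA came from hepatocytes of male FVB mice of 6 to 8 weeks and was hybridised to Affymetrix mouse arrays, 1 array for each of 2 sorted fractions. Per the labels, all animals received by hydrodynamic tail vein injection a plasmid for Ezrin T567D (PT3EF5α, 10 µg) with a Sleeping Beauty transposase plasmid (pCMV/SB, 0.8 µg) in 2 ml of saline. Collagenase isolation of hepatocytes followed after 1 week, and a GFP sort gave a fraction negative and a fraction positive for Ezrin T567D, a form of ezrin that mimics its phosphorylated, active state. The negative fraction therefore comes from injected mice too, and how many animals were used or pooled is not given in these sources. One label field disagrees with the others: it gives 2 months for both samples, chow for negative cells and fast food for positive cells, so diet and fraction cannot be told apart.

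In the liver the family works on both faces of the hepatocyte. Pumps of the canalicular membrane secrete bile salts, phospholipid, cholesterol and conjugated bilirubin into bile, pumps of the basolateral membrane return conjugates to blood or load cholesterol onto apolipoprotein A-I, and others act in mitochondria, peroxisomes and lysosomes. Subfamilies E and F have no membrane domain and take part in translation. Ezrin, radixin and moesin tie membrane proteins to cortical actin, and radixin is the member known to hold the conjugate pump MRP2 at the canalicular membrane. The series title concerns ezrin phosphorylation, the Hippo pathway and Yap in liver.

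Median signals were 174.2 (negative) and 187.6 (positive). As a background floor served the 95th percentile, within an array, of 84 probe sets of odorant and other chemosensory receptors, which mark sensory neurons and taste cells. It was 252.66 for the negative fraction and 334.04 for the positive one. Of 18193 genes, 10178 exceeded it in at least 1 array and 8362 in both, judged on the brightest probe set of each gene. With 1 array per fraction there is no replicate error and no test between the fractions. The only error in the files is technical. In 3182 genes a second probe set also passed both floors. The SD of the difference between the log2 ratios (positive over negative) of the brightest pair was 0.42. This is 0.30 for a single ratio if both probe sets vary alike and independently. Error that the probe sets of an array share, as from the sort or the hybridisation, cancels in this difference and is not part of it. Both probe sets for ezrin itself were below the floor in both arrays, so the sort labels could not be checked through it.

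The signals of the ABC transporters differed little between the 2 fractions. Of the 45 genes, 27 were above the floor in both arrays, 5 in the negative array only and 13 in neither. By the brightest probe sets none reached a 2-fold ratio in either direction, though a dimmer probe set of Abcf1 had a log2 ratio of -1.09. Of the 10178 genes, 1.34% were at least 2-fold higher and 0.58% at least 2-fold lower in the positive array. At shares this small, 32 members would show few or no such genes, so the count does not set the family apart. At 1.5-fold there were 0 higher genes (6.57% of all genes) and 1 lower gene (3.98% of all genes), the translation factor Abcf1. Over the 32 genes above the floor in at least 1 array, 16 were higher and 14 lower, and 2 had no direction. The median log2 ratio was 0.01 against 0.00 over all genes. Abca7, Abcf2 and Abcg4 count as lower through bounds alone, since a gene past only the negative floor cannot be called higher. Among the 27 members past both floors the split was 16 up to 11 down. Their middle log2 ratio was 0.05, against 0.00 for all genes past both floors.

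Most ratios of the measured members lay close to 0, as did most ratios of all genes. Of the 27 members past both floors, 24 (88.9%) had a log2 ratio within 0.42 of 0, against 78.7% of the 8362 genes. Within the 0.30 of a single ratio lay 22 members (81.5%) and 63.8% of all genes. The median size of the log2 ratio, regardless of sign, was 0.15 in the family and 0.21 over all genes. For mean signals of 1000 or more it was 0.16 over 15 members and 0.18 over 3929 genes, and for lower signals 0.11 over 12 members and 0.25 over 4433 genes. The members outside the 0.42 range were Abcf1, Abcc8 and Abcc6, and Abcb11 lay just inside it. These shares describe 2 arrays and carry no test, and with 27 members 24 is not far from the share of all genes.

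**Figure D1:**
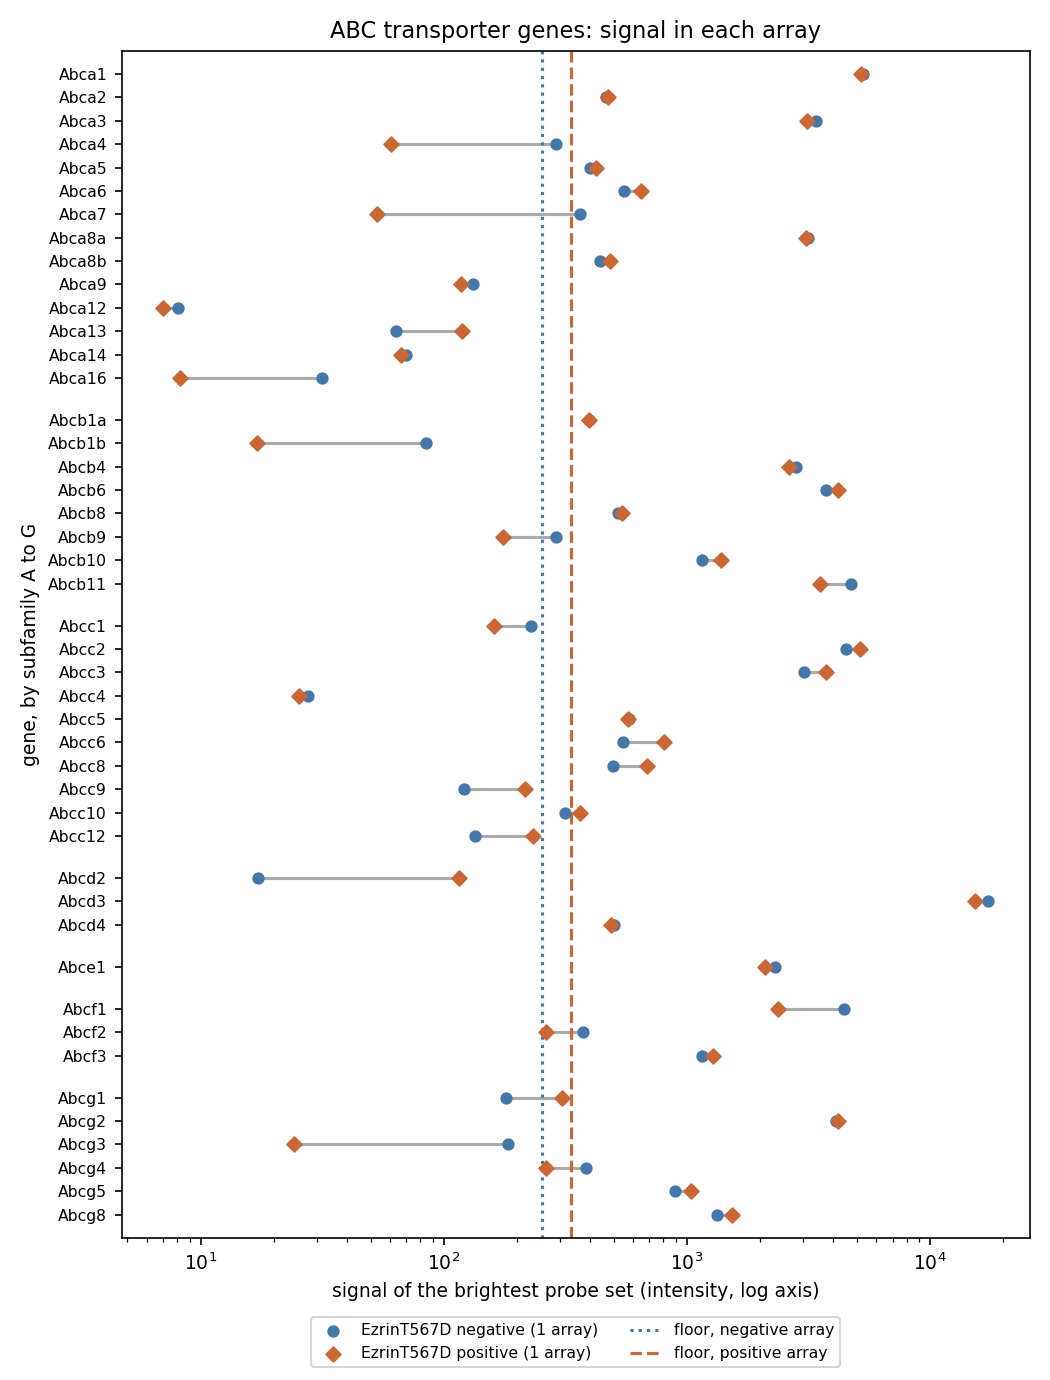
Signal of the brightest probe set of each of the 45 ABC transporter genes in the negative (circles) and the positive array (diamonds), on a log axis, with the floors of 252.66 and 334.04 as vertical lines. Colours are to be compared within a row only. Right of the floors the symbols of a gene nearly coincide, with the widest gaps for Abcf1, Abcc6, Abcc8 and Abcb11, and the longest bars have at least 1 end below a floor.

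**Figure D2:**
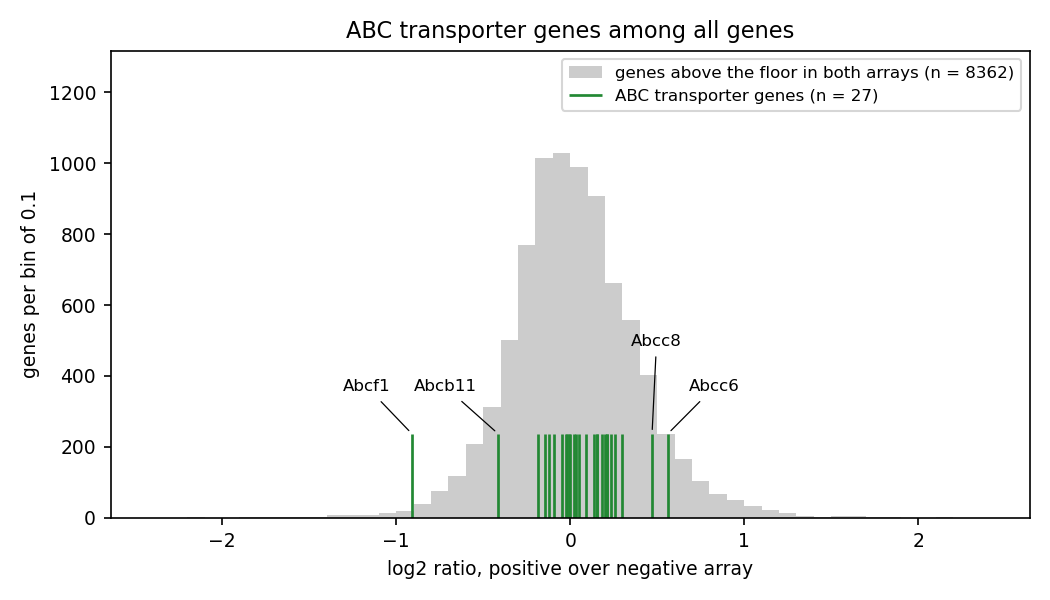
Histogram of log2 ratios (positive over negative) of the 8362 genes past both floors, with the 27 ABC transporter genes as green lines. The members run from -0.91 for Abcf1 to 0.56 for Abcc6, and 24 of them lie within 0.42 of 0.

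The canalicular pumps comprise 8 listed genes, 7 of them above the floor in both arrays, with 4 higher, 3 lower and a median log2 ratio of 0.03. The bile salt export pump Abcb11, which drives bile salt secretion, read 4704.2 in the negative fraction and 3527.8 in the positive one, a log2 ratio of -0.42 (1.33-fold lower). It was the lowest of the canalicular pumps, and 9.21% of the 8362 genes had a ratio as low or lower. It has 1 probe set, and settings of floor and probe set choice cannot move it. Scaling and the offset put it between -0.41 and -0.33. The value is just inside the SD of 0.42 of a difference between probe sets and outside the 0.30 of a single ratio. Neither figure holds error shared by the probe sets of an array, so this does not place Abcb11 beyond technical noise. Abcb4, the floppase that delivers phosphatidylcholine to bile, read 2815.9 and 2634.7 (log2 ratio -0.10).

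Other canalicular pumps stood level or slightly higher in the positive array. Abcc2 (MRP2), the pump for bilirubin glucuronide and glutathione conjugates, read 4502.8 in the negative fraction and 5119.5 in the positive one (log2 ratio 0.19). Its anchor radixin read 7171.3 and 8001.6 in the brightest of 3 probe sets, which had log2 ratios of 0.16, -0.05 and -0.31. The xenobiotic and urate pump Abcg2 read 4094.3 and 4193.9 (0.03). Of the P-glycoprotein genes, which export drugs, Abcb1a read 395.8 and 395.2 (-0.002), close to the floor, and Abcb1b was below the floor in both arrays.

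Abcg5 and Abcg8 encode the partners of the heterodimer that secretes cholesterol and plant sterols into bile, and their readings were nearly the same in size and direction. Abcg5 read 895.7 in the negative fraction and 1035.8 in the positive one (log2 ratio 0.21). Abcg8 read 1330.7 and 1529.3 (0.20). The genes lie head to head on chromosome 17 with no protein-coding gene between them, and the nearest pair of annotated start sites is 110 bases apart, so 209 of the 300 bases of those promoter windows are shared. A second annotated Abcg8 window, chr17:84676052-84676351, shares 0 bases with that of Abcg5. The Abcg5 window is shown because a single stretch of DNA lies in front of both genes. It spans chr17:84682962-84683261 (GRCm38.p6, minus strand, RefSeq), from 250 bases before to 50 bases after the Abcg5 start. Capitals mark the TATA box letters TATAAA, whose first base is 84 bases before the Abcg5 start and on the strand shown. They also mark a CCAAT box on the other strand, which reads ATTGG here. Both are letter matches in the bases shared with the Abcg8 window and are not assigned to either gene. The match to the CCAAT box begins at the Abcg5 start itself.
Abcg5: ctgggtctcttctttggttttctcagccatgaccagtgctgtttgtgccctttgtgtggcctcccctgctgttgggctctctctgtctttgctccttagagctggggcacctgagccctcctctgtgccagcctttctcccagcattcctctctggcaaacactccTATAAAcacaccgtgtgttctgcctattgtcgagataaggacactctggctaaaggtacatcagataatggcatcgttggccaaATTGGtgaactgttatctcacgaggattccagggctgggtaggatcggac

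The promoter windows of Abcb11 and Abcc2 are shown because these canalicular pumps had opposite signs, -0.42 and 0.19. Abcb11 spans chr2:69342567-69342866 (minus strand) and Abcc2 chr19:43782058-43782357 (plus strand), both from RefSeq on GRCm38.p6. Capitals mark the nuclear receptor half-site AGGTCA in Abcc2 and its reverse complement TGACCT in Abcb11. In Abcc2 only, they also mark the CCAAT box in reverse (ATTGG) and the antioxidant response core TGACNNNGC. The half-site starts 56 bases before the start of Abcb11, on the other strand, and 49 bases before that of Abcc2, on the strand shown.
Abcb11: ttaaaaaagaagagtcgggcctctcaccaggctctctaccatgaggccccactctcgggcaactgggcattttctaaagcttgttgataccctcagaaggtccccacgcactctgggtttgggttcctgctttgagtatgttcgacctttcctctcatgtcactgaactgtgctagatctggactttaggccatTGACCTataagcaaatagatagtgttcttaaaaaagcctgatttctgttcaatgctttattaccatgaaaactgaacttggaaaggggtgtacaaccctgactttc
Abcc2: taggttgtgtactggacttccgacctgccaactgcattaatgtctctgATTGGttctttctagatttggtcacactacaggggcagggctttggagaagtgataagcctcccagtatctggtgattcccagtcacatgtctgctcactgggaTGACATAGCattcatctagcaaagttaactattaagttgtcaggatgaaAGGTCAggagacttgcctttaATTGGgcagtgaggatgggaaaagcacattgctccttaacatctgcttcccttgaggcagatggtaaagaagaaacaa

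Motifs were searched on both strands of the 42 RefSeq windows that matched 35 of the 45 members. The half-site AGGTCA was in 7 of the 42 windows (16.7%), those of Abcb6, Abcb11, Abcc2, Abcc10 and Abcg2, against 16.3% of all 32851 windows of 300 bases. TATAAA was in 7 windows (16.7%, against 13.6%), CCAAT in 15 (35.7%, against 37.4%), the E box CACGTG in 5 (11.9%, against 7.15%) and TGACNNNGC in 7 (16.7%, against 12.4%). The inverted repeat of the half-site with 1 base between was in 0 of the 42 windows and 3 of the 32851. Letter matches describe the windows only, and a gene with several start sites has several windows. Where windows overlap, as those of Abcg5 and Abcg8 do, the same site counts in each.

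Basolateral pumps comprise 6 listed genes, 4 of them above the floor in both arrays, with a median log2 ratio of 0.15. Abcc6, whose activity releases ATP from hepatocytes into blood and supplies pyrophosphate against calcification, read 544.4 in the negative fraction and 803.6 in the positive one. Its log2 ratio of 0.56 (1.48-fold) was the highest of the family, and 93.3% of the 8362 genes had a ratio as low or lower. Abcc6 has 1 probe set, and its ratio was 0.50 after quantile normalization and loess and 0.52 with an offset of 50. Abcc3 (MRP3), which returns conjugates to blood, read 3019.8 and 3712.1 (0.30). Abcc4 (MRP4) and Abcc1 (MRP1) were below the floor in both arrays.

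Abca1 and Abcc5 were level by their brightest probe sets. Abca1, which loads cholesterol onto apolipoprotein A-I, read 5300.6 and 5213.1, with log2 ratios of -0.02, -0.02 and 0.06 in its 3 probe sets. Abca1 is also active in macrophages, and of 10 Kupffer cell and macrophage markers 4 exceeded the floor of the negative array and 3 that of the positive one, with summed signals of 3377.1 and 2414.5 that include the markers below the floor. Of those above it in both arrays C1qb had a log2 ratio of -0.66, Clec4f -0.10 and Csf1r 0.33. Their part in the Abca1 reading was not tested, and in such bulk samples fewer cells of a type and less RNA per cell cannot be told apart. For Abcc5 (MRP5), a pump for nucleotide analogues, the brightest probe set read 575.9 and 574.1 (log2 ratio 0.00), whereas a second one read 259.1 and 453.6 (0.81). With the mean over probe sets the basolateral median was 0.35 instead of 0.15, because Abcc5 then stood at 0.40.

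The rest of subfamily C included the second gene outside the 0.42 range. Abcc8 encodes the sulfonylurea receptor of pancreatic beta cells and read 493.9 in the negative fraction and 684.2 in the positive one (log2 ratio 0.47, 1.39-fold), with its other probe set below the floor. Abcc6 and Abcc8 lie near each other on chromosome 7 with 2 protein-coding genes between them, and both were higher. A link between their position and their ratios was not tested. Abcc10 (MRP7) read 313.6 and 363.4 (0.21), and Abcc9 and Abcc12 were below the floor. Subfamily C had 5 members higher and 1 lower of the 6 above the floor, with a median of 0.26, the highest of subfamilies A to G.

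Mitochondrial members read slightly higher in the positive array. Abcb10, which takes part in haem synthesis, read 1154.4 in the negative fraction and 1378.1 in the positive one (log2 ratio 0.26), and its second probe set had 0.05. Abcb6, linked to porphyrin transport, read 3731.4 and 4158.9 (0.16). Abcb8 read 520.8 and 538.5 (0.05), which turned to -0.05 after quantile normalization and -0.03 after loess. All 3 ratios were under the 0.42 between probe sets.

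Peroxisomal and lysosomal members differed little. Abcd3 (PMP70), which imports branched-chain fatty acids and bile acid precursors into peroxisomes, read 17360.3 and 15241.9 (log2 ratio -0.19). The arrays differed slightly with brightness, since the 349 genes brighter than 10000 on average had a median of -0.13, and that of Abcd3 was -0.06 after quantile normalization. The lysosomal cobalamin exporter Abcd4 read 502.1 and 485.9 (-0.05), with -0.02 in its second probe set. Abca2 read 465.0 and 471.4 (0.02) and Abca5 397.4 and 423.4 (0.09), both near 0 and both with a negative sign after quantile normalization and loess. The peptide transporter Abcb9 was above the floor in the negative array only, at 289.2 and 175.2, and has no direction.

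Subfamily A includes a cluster of neighbouring lipid transporter genes on chromosome 11, in the order Abca8b, Abca8a, Abca9, Abca6 and Abca5. Abca8a read 3131.1 in the negative fraction and 3087.0 in the positive one (log2 ratio -0.02, turning to 0.04 after quantile normalization). Abca8b read 437.5 and 480.5 (0.14). Abca6 read 548.2 and 645.2 (0.24), the highest of subfamily A, and Abca9 was below the floor. Neighbours in this cluster thus spanned ratios from -0.02 to 0.24. Outside it, Abca3, the lipid pump of lung surfactant, read 3404.5 and 3124.3 (-0.12, and -0.19 in a second probe set).

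The members above the floor in the negative array only have no more than a bound, taken by raising the positive signal to its floor. Abca7, a lipid transporter studied in Alzheimer's disease, read 362.1 and 53.2, which makes it at least 1.08-fold lower in the positive array. Abcf2 read 373.4 and 262.6 (at least 1.12-fold lower), and Abcg4 read 382.7 and 263.6 (at least 1.15-fold lower). Abca4, the retinal transporter, read 290.5 and 60.5 and has no direction, because its negative signal is under the positive floor of 334.04. The floor of the positive array is the higher one, and a signal between the 2 floors passes only in the negative array. The 13 members below the floor in both arrays (Abca9, Abca12, Abca13, Abca14, Abca16, Abcb1b, Abcc1, Abcc4, Abcc9, Abcc12, Abcd2, Abcg1 and Abcg3) ranged in their brightest signals from 8.1 to 228.5 (negative) and from 7.0 to 306.9 (positive).

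The soluble members, which act in translation, carried the lowest ratio of the family, and there the probe sets disagreed. Abcf1, a factor of translation initiation, read 4427.0 in the negative fraction and 2355.3 in the positive one in its brightest probe set, a log2 ratio of -0.91 (1.88-fold lower). Its other probe sets past both floors had log2 ratios of 0.25 (2996.1 and 3567.8), -0.75 (2160.8 and 1287.5) and -1.09 (1264.7 and 592.5). Another, above the floor in the negative array only, had a bound of -0.54, so 4 of 5 were lower and 1 was higher. The 2 brightest are close in signal, and with the geometric mean of the arrays in place of the arithmetic mean the brightest is the one at 0.25. The direction given for Abcf1 therefore depends on the probe set.

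Abcf3 was split in the same way. Its brightest probe set by the mean of both arrays read 1148.8 in the negative fraction and 1276.0 in the positive one (log2 ratio 0.15), and the next one read 1418.9 and 908.3 (-0.64). The remaining one had a bound of -0.04. Abce1, which recycles ribosomes, was lower in both of its probe sets, with 2300.2 and 2083.3 in the brightest (-0.14) and 1137.0 and 889.3 in the second (-0.35). In 8 members at least 2 probe sets passed both floors, and in 3 of them (Abcc5, Abcf1 and Abcf3) the 2 brightest had opposite signs. Over the 3182 genes with such pairs, opposite signs occurred in 40.6%. Their median difference without regard to sign was 0.26, against 0.21 in the 8 members, whereas the SD of the difference was 0.42 over all genes and larger, 0.62, in the 8 members.

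**Figure D3:**
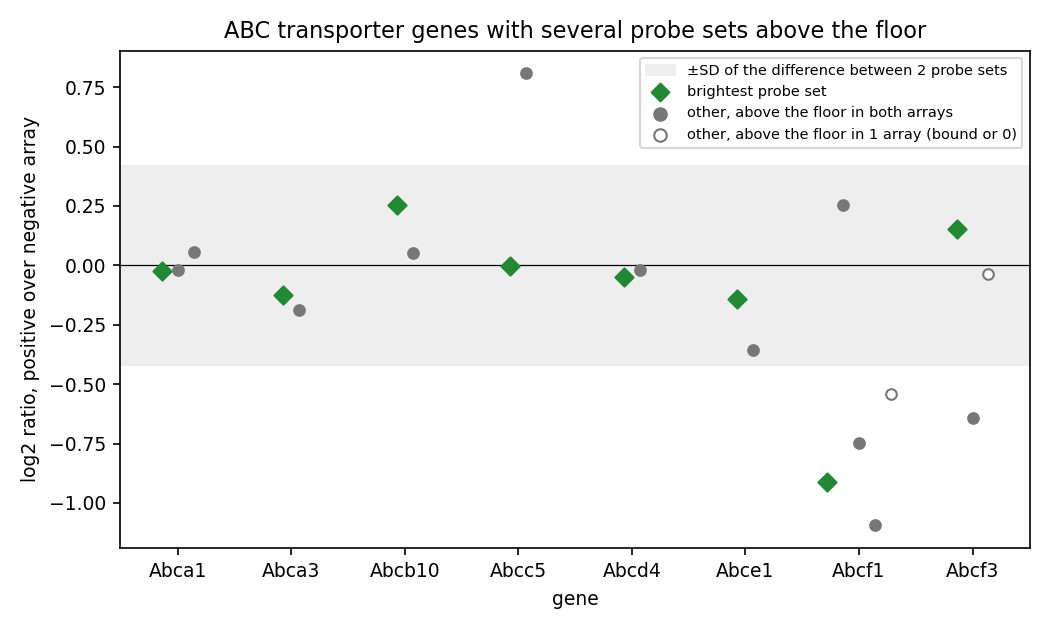
Log2 ratio (positive over negative array) of each probe set above the floor for the 8 ABC transporter genes with several, with the brightest as a diamond and bounds or values of 0 as open circles. The grey band is 0 ± 0.42, the SD of the difference between 2 probe sets of a gene. Probe sets of Abca1, Abca3, Abcb10, Abcd4 and Abce1 lie within 0.22 of each other, whereas the 2 brightest of Abcc5, Abcf1 and Abcf3 are about 0.80 or more apart.

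Carriers that bring the substrates of these pumps into hepatocytes had log2 ratios from -0.63 to 0.71. Of 9 listed uptake and exchange carriers 7 exceeded the floor, 3 higher and 4 lower. The median log2 ratio was -0.11 over the 6 measured in both arrays, and -0.28 with Slc51b, which has only a bound. The organic anion carrier Slco1b2 read 10325.3 in the negative fraction and 16887.6 in the positive one (0.71), and all 5 of its probe sets were higher. The bile salt uptake carrier Slc10a1 (NTCP) read 10430.1 and 8210.7 (-0.35, and -0.17 in a second probe set), the same sign as Abcb11. Slco2b1 read 5240.9 and 3398.2 (-0.63), but its other probe sets had 0.03 and 0.00, and Slc22a7, a carrier of organic anions, had -0.53. Of the 6 measured in both arrays 3 lay within 0.42 of 0, against 24 of the 27 ABC transporters and 78.7% of all genes past both floors. Slco2b1 lay outside by its brightest probe set only. With 6 genes the count does not set the carriers apart, and the difference was not tested.

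Partners at the canalicular membrane stayed close to 0, with 11 of 12 measured genes within 0.42 and a median of 0.00 over 13. Of all genes past both floors 78.7% lay within 0.42, so 11 of 12 is not far from that share. The copper exporter Atp7b was lowest (log2 ratio -0.46), followed by Hax1, which binds several canalicular pumps (-0.41, but 0.13 in a second probe set). The PDZ scaffold Pdzk1 (0.37) and the trafficking protein gene Vipas39 (0.32, without a direction in a second probe set) were highest. None of the 13 above the floor reached 1.5-fold, and Ezr and Stx3 were below the floor in both arrays. Of all genes 6.57% were higher and 3.98% lower at that level, so 0 of 13 is not far from these shares.

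Among receptors and factors known to control ABC transporter genes, 3 of the 13 above the floor reached 1.5-fold, all higher, where 6.57% of all genes were. That count depends on the setting: CAR (Nr1i3) was at 0.58, just under 1.5-fold, with an offset of 50, and PXR (Nr1i2) at 0.41 after quantile normalization. The xenobiotic receptor PXR (Nr1i2) read 416.8 in the negative fraction and 736.3 in the positive one (log2 ratio 0.82), with 0.49, under 1.5-fold, in a second probe set of nearly the same brightness. The aryl hydrocarbon receptor Ahr read 796.5 and 1396.2 (0.81, and 0.76), and the constitutive androstane receptor CAR (Nr1i3) read 948.8 and 1445.8 (0.61). All are background regulators of drug exporters such as Abcb1a, Abcc2 and Abcg2, whose log2 ratios were 0.00, 0.19 and 0.03. Hnf4a, the fourth by size, had -0.32 in the brightest of 4 probe sets, which ran from -0.32 to 0.62. The bile acid receptor FXR (Nr1h4), which drives Abcb11, read 2646.3 and 2277.8 (-0.22). It is not among the 4 largest ratios of the list and was picked after its value was seen. Its part in the Abcb11 reading was not tested.

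Genes for high-density lipoprotein assembly with Abca1 were level, with 6 measured, a median of -0.02 and the largest ratios for the receptor Scarb1 (-0.27) and the acyltransferase Lcat (-0.23), ahead of Pltp (-0.04) and Apoa2 (-0.01). The median of this list was 0.08 after loess. For synthesis of glutathione, a substrate and partner of the MRP pumps, Gss had -0.42 (and -0.50 in a second probe set) and Gclm 0.01 (and -0.17). Gclc had -0.03, but a second probe set, reading 3070.5 and 4544.7, had 0.57. The median of -0.03 by brightest probe sets was 0.05 after quantile normalization and 0.04 after loess.

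Zonation genes, which mark positions along the liver lobule, separated the same 2 arrays widely. Pericentral genes were higher in 12 of 12 members above the floor, with a median log2 ratio of 1.11, led by Gulo (1.80), Gstm3 (1.74), Lect2 (1.51) and Tbx3 (1.46), and with Cyp7a1, Glul, Cyp1a2 and Oat also past 2-fold. Periportal genes were lower in 13 of 14, with a median of -1.07, led by Aldh1b1 (-2.15), Hal (-1.84), Etnppl (-1.74) and Ctsc (-1.61), and with Cdh1, Hsd17b13 and Pigr also past 2-fold. Of these, 0 of 12 pericentral and 2 of 14 periportal genes lay within 0.42 of 0. Over all genes 1.34% were at least 2-fold higher and 0.58% at least 2-fold lower. Second probe sets kept Gstm3 (1.02), Glul (1.41) and Cyp7a1 (1.26) past 2-fold. They were under it for Tbx3 (0.91), Hsd17b13 (-0.92) and Pigr (-0.97), and Ctsc had bounds of -0.24 and -0.21 in its dimmer probe sets. These lists hold genes known for zonation and were drawn up with earlier results of these arrays known. Their part in the ratios of Abcb11, Abcc6 or other ABC transporters was not tested.

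Markers of the labelled cell type were present in both arrays, with 8 of 8 hepatocyte markers above the floor and summed signals of 297375 in the negative fraction and 282073 in the positive one. Of sinusoidal endothelial markers 6 and 5 of 8 exceeded the floor, with sums of 3847.7 and 4209.4, and of stellate cell markers 6 and 5 of 8, with sums of 2966.4 and 2699.8. Among 6 cholangiocyte markers with a probe set only Tspan8 exceeded it, while Krt19, Krt7, Epcam, Sox9 and Cftr were below the floor in both arrays. Lymphocyte and neutrophil markers were below it in both arrays except Cd79a, which exceeded it in the negative array, and of the erythroid markers Alas2 exceeded it in both. The part of other cells in the ABC transporter readings was not tested.

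**Figure D4:**
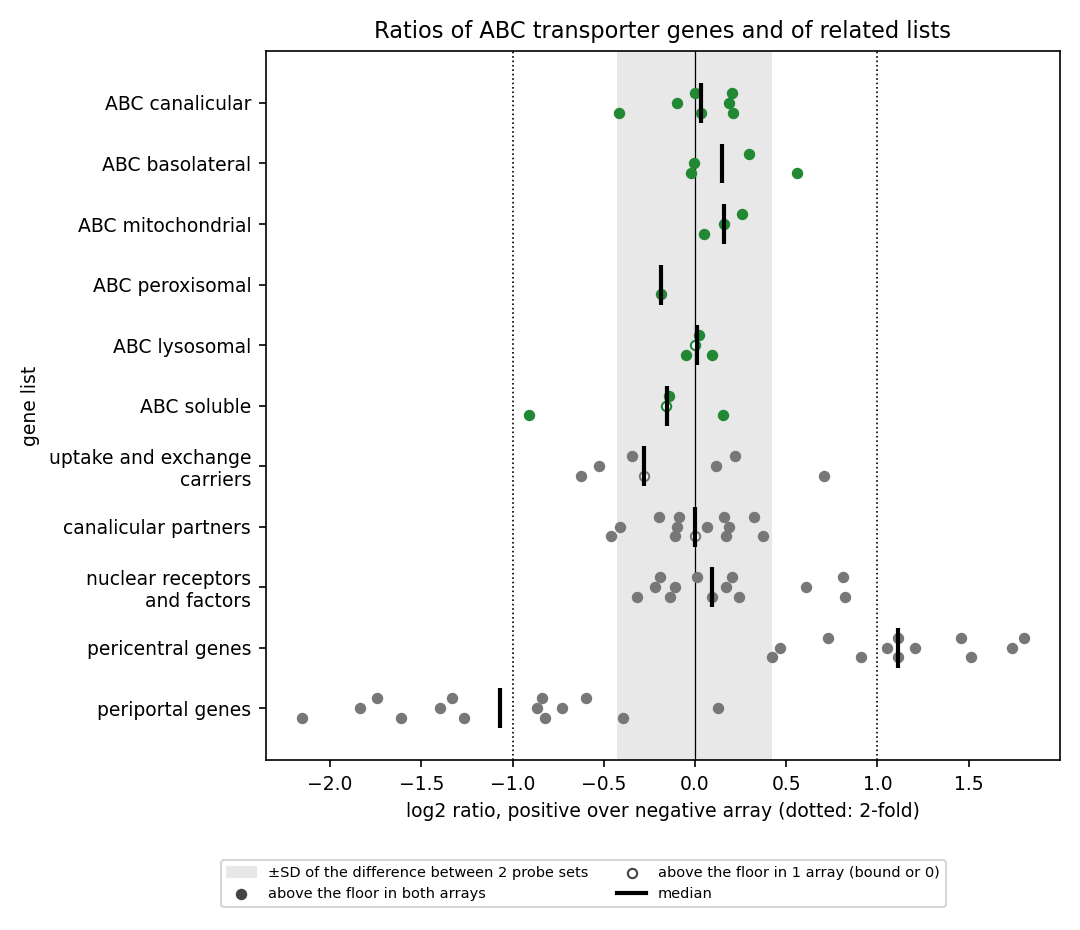
Log2 ratio (positive over negative array) of each gene above the floor, by list, with ABC transporters in green and other lists in grey, medians as black bars, open circles for genes above the floor in 1 array, dotted lines at 2-fold and a grey band of 0 ± 0.42. Medians of the ABC lists run from -0.19 to 0.16, against 1.11 for pericentral and -1.07 for periportal genes.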

How the data were processed

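Probe set signals of 2 Affymetrix arrays, 1 per group by the group label, were used as deposited. Per the submitters' processing notes the intensities come from MAS5, and the deposited values are linear. Neither a software version nor detection calls are stated. The 2% trimmed mean was 500.0 in both arrays as deposited, so a shift of all transcripts cannot be seen. The number of arrays limits the precision.

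Of 45101 probe sets, 34945 had 1 gene symbol, 932 several, 9160 none, and 64 were controls. Symbols came from the platform annotation, and all 45 members matched the RefSeq gene table (GRCm38.p6) by Entrez ID with 0 symbols changed. No build is named for the arrays, so coordinates are given only for RefSeq promoter windows. The probe set with the highest mean of both arrays stood for its gene, judged above background against the floor given above. A gene above the floor in 1 array had the dim signal raised to the floor, and 875 genes whose bound then had the wrong sign were given a ratio of 0. Log2 ratios were counted at 2-fold and 1.5-fold, without p-values, since each group has 1 array. The calculation was run on simulated data (Python 3.11.15, pandas 2.3.3, numpy 2.4.6, statsmodels 0.14.6). Those data held less noise than the spread between probe sets here, and large ratios planted in bright genes only. The run therefore checks the code and says nothing about ratios as small as those of the members. Alternatives were 11 planned settings and 4 added after seeing the data. The written plan named taste receptors for the floor without saying which, nor which mean ranks probe sets. The first set run held Tas1r genes and no pseudogenes; after its floors were seen it was replaced by the set above, without Tas1r and with pseudogenes, because that came closer to the counts of earlier work on these arrays. Both other readings are among the added settings, as are 2 other rankings of probe sets. Members and lists were chosen with earlier results of these data known. Named were all members, the 4 largest ratios of each other list and those past 2-fold, plus radixin and Nr1h4, which were picked after their values were seen.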

Additional observations from a re-analysis of the deposited data

How the results depend on the processing

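No paired analysis was possible because each group has 1 array and the labels give no replicate numbers. Over the 15 alternatives, 251 of 270 values for counts and medians of the family, its subfamilies and its roles stayed within 1.5 times (counts) or within the technical spread (medians), and 19 moved. Of 467 values for single members 449 stayed, 16 moved and 2 reversed, where only a member at 1.5-fold or more can count as reversed. These were Abcf1, at 0.25 after dropping shared-probe sets (_s_at, _x_at, _a_at) and at 0.25 with the brightest chosen by geometric mean. There the cause is the change of probe set. Many of the 449 values could not have moved, and so many of the 251 counts and medians built from such values could hardly move. The spread allowed for a median was also wider for lists of fewer genes. A change of floor leaves the ratio of a member that passes both floors as it is. Choosing or averaging probe sets cannot change a member with 1 probe set, as 19 members have.

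With the median of all probe sets as floor, 1 member was higher and 4 were lower at 1.5-fold, and the median of subfamily F was -0.51. Without a floor, 1 was higher and 5 lower at 2-fold, 5 higher and 7 lower at 1.5-fold, subfamily F was at -0.51 and the peroxisomal members at 1.28; these counts rest on signals at background. Over genes above the floor in both arrays subfamily F was at -0.38. The mean over probe sets put basolateral members at 0.35. After dropping shared-probe sets 1 member (Abcc5) was higher at 1.5-fold, subfamily C and basolateral members were both at 0.43, and Abcf3 in place of Abcf1 was lower. Choosing the brightest by geometric mean, 0 were lower at 1.5-fold and subfamily F was at 0.15; by the higher array, 2 were lower, subfamily F was at -0.64 and the soluble members at -0.40. Those last settings were chosen after seeing the data, as were floors from receptor sets with Tas1r. With Tas1r added the floors were 272.4 and 333.98, and with Tas1r and without pseudogenes 276.6 and 334.04; 113 and 112 genes were then higher at 2-fold, and the members numbered 32 above the floor, 0 at 2-fold and 1 lower at 1.5-fold in both. Below 1.5-fold, Abcf3 went from 0.15 to -0.64 without shared-probe sets and by the higher array and to -0.18 with the mean over probe sets, and Abcc5 from 0.00 to 0.81 without shared-probe sets. Abca1, Abca2, Abca5, Abca8a and Abcb8, all within 0.10 of 0, changed sign after quantile normalization and loess. The other alternatives moved none of the family's counts or medians, and signal near the floor limits the 5 members with bounds. Over all genes the counts at 2-fold were 136 higher and 59 lower, against 1629 and 1655 without a floor, 239 and 155 with the median floor, 80 and 46 with the 99th percentile floor, 83 and 59 with 1 floor, 106 and 38 with the mean over probe sets, and 88 and 48 with an offset of 50. Higher calls made up 69.7% of these, 61.5% after quantile normalization and 60.1% after loess.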

Other observations

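Among the 35 members with a RefSeq promoter window, the windows of the 25 genes above the floor were richer in CpG than those of the 10 genes below it. The median ratio of observed to expected CpG was 0.70 over 31 windows of the first and 0.41 over 11 windows of the second, with GC contents of 61.7% and 53.7%. Both sets ranged widely, from 0.054 to 1.12 and from 0.13 to 1.04. Over all 32851 windows the median was 0.38. These values describe sequence beside a signal threshold and were not tested.

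The P-glycoprotein and phospholipid pump genes Abcb1a, Abcb1b and Abcb4 lie next to each other on chromosome 5 with no protein-coding gene between them. Abcb1a and Abcb4 were above the floor in both arrays (log2 ratios of -0.002 and -0.10), and Abcb1b, between them, was below it, reading 84.8 (negative) and 17.1 (positive).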
